A study of Mus musculus with 6 samples.

Results

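The genes described here encode enzymes of haem biosynthesis, measured in sorted mesenchymal progenitors of mouse bone marrow with and without the laminin alpha 4 chain. The members are Alas1, Alas2, Alad, Uros, Urod, Cpox, Ppox and Fech, matched by symbol, and all 8 were found among the 25491 genes of the deposited table. They do not cover every enzyme of the pathway. The set was chosen by its counts in this same comparison, because Alad was higher in Lama4-/- (means of 64.5 CPM in Lama4-/- and 20.8 CPM in WT) and because Alas2 is a red cell gene and Alas1 is not. CPM is a gene's count scaled to a library total of 1000000 after TMM adjustment, a scaling that offsets differences in library make-up. The genotype differences of these genes are therefore a description, with no test to support them.

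Lama4-/- C57BL/6J mice, deficient in the laminin alpha 4 chain of basement membranes, gave 3 libraries, and wild type (WT) C57BL/6J mice gave the other 3. All mice were 14 weeks old and had received a sublethal 7 Gy of radiation 6 weeks before the sort, so the data hold no unirradiated group. The progenitors were sorted from marrow as CD45-, TER119-, CD31-, CD44- and SCA1- and as positive for the integrin chain CD51. The labels name no promoter or Cre that would limit the deletion to a cell type. They also leave unsaid whether the libraries are separate mice, so a p-value here reflects variation among libraries that could be technical.

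Haem is the iron-holding ring of haemoglobin, of the cytochromes and of catalase. Its synthesis starts in the mitochondrion, where aminolevulinate synthase joins glycine and succinyl-CoA, continues in the cytosol from aminolevulinate dehydratase to uroporphyrinogen decarboxylase, and ends in the mitochondrion, where ferrochelatase inserts iron. The first enzyme has a pair of genes. Alas1 serves all tissues and is held down by haem itself, while Alas2 serves red cell precursors, which make most of the body's haem.

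Library totals ran from 12979711 to 15663957 counts in Lama4-/- and from 6263830 to 13409177 in WT. Lama4, the check of the labels, had 0 counts in each Lama4-/- library and 1281 counts over the WT libraries. Taking 3 counts over the whole Lama4-/- group as a floor puts Lama4 at least 580.4-fold lower there, with an adjusted p of 0.0497 by edgeR. Leaving out any 1 library other than Lama4-/- replicate 3 took that p above 0.05, to between 0.0735 and 0.593. The floor covers counting error only and not the spread between libraries. The stromal genes Cxcl12 and Lepr marked both groups, at 5177 ± 1291 and 128 ± 52.2 CPM in Lama4-/- and at 7569 ± 3269 and 361 ± 137 CPM in WT (mean ± SD, n = 3, as in all that follows). Of 10 listed stromal markers, 9 had a negative log2 fold change and 0 passed the edgeR adjustment. DESeq2 called 5 of the 10 lower, where it called 3.56% of the genes with an adjusted p lower. Lepr was among these 5 (DESeq2 adjusted p = 0.0147), and its groups did not overlap. The median of the 10 was -0.93, or -0.20 without the length trend described below. The pan-leukocyte gene Ptprc was at 0 to 2.18 CPM in Lama4-/- and 0 to 4.09 CPM in WT. Cd44, whose protein the sort selected against, was at 63.6 ± 15.98 CPM in Lama4-/- and 121 ± 43.8 CPM in WT. Itgav, the gene of CD51, for which the sort was positive, was at 59.2 ± 14.3 CPM in Lama4-/- and 114 ± 22.5 CPM in WT. Its groups did not overlap (DESeq2 adjusted p = 0.0401). All 5 genes of the gate had a negative log2 fold change, and 0 passed the edgeR adjustment.

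The promoter regions of Alas2, Alad and Ppox are shown because these are the members whose groups did not overlap. Each line gives the last 150 bases before an annotated start, from RefSeq on GRCm38.p6, with 4 short motifs in capitals. The motifs are GATAA (the core of sites of GATA factors), CACGTG (the E-box), GCATGC and CCAAT (the core of NF-Y sites), searched on both strands, and no matches overlapped in any member searched. Alas2 lies at chrX:150547267-150547416 on the plus strand, Alad at chr4:62520064-62520213 and chr4:62519910-62520059 on the minus strand, and Ppox at chr1:171281187-171281336 on the minus strand.
Alas2: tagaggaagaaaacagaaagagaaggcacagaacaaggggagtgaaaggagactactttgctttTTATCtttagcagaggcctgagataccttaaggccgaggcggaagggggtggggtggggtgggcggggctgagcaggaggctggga
Alad, upstream start: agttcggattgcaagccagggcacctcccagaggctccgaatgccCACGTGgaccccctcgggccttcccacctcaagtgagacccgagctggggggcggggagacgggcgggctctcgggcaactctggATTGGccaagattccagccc
Alad, downstream start: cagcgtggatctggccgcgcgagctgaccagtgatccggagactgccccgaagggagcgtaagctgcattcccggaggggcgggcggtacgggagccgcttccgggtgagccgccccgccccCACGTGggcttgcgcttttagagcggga
Ppox: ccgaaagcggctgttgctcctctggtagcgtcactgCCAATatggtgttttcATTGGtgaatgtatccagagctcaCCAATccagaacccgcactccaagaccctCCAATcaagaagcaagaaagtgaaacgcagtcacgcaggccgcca

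Windows of 300 bases, 250 before the start and 50 after it, were used for 7 of the 8 members, all but Fech, 10 windows in all. GATAA was found in the Alas2 window, 86 bases before the start on the opposite strand, where it reads TTATC, and in neither Alad window. It was also found in the Cpox window and in 1 Uros window, and 25.4% of all 32851 windows held it. CACGTG was found in both Alad windows, 105 and 28 bases before the starts, and in the Urod window and 1 of the Uros windows, against 7.15% of all windows. CCAAT occurred 4 times before the Ppox start, once before the Urod start and in both Alad windows, and 37.4% of all windows held it at least once. The Alad windows overlap, and the match 20 bases before the upstream start is the same site as that 174 bases before the downstream start. GCATGC was found at 1 site of Alas1, which lies in both of its overlapping windows, and in 7.93% of all windows. These matches are letters in a window and were not tested for binding.

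Alas2, the red cell form of the first and rate-setting enzyme, had 120.1, 99.1 and 228 CPM in Lama4-/- and 11.4, 53.3 and 69.2 CPM in WT. The groups did not overlap, but both were wide, and the WT libraries differed 6.05-fold among themselves. The means were 149 ± 69.0 CPM in Lama4-/- and 44.6 ± 29.8 CPM in WT, a log2 fold change of 1.74 (SE 0.63). Of the 2403 exon bases of Alas2 (chromosome X, 150547375 to 150570638, plus strand, GRCm38), 311 are shared with Apex2 on the opposite strand, and the kit does not mark strand.

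Alas1, the housekeeping form, had 7.02, 38.3 and 10.96 CPM in Lama4-/- and 16.8, 32.7 and 27.5 CPM in WT. Lama4-/- replicate 2 was the highest of all 6 libraries while the other Lama4-/- libraries were the lowest, so the groups overlapped. The means were 18.8 ± 17.02 CPM in Lama4-/- and 25.7 ± 8.10 CPM in WT, a log2 fold change of -0.45 (SE 0.64). Without Lama4-/- replicate 2 that value was -1.52. Alas1 differed between genotypes by less than the spread between replicates. Alas1 lies on chromosome 9, 106233455 to 106248654, on the minus strand (GRCm38), and shares 465 of its 6174 exon bases with 4930500F10Rik on the opposite strand.

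Alad, the dehydratase that joins a pair of aminolevulinate molecules into the first pyrrole, had 1233, 756 and 863 counts in the Lama4-/- libraries and 237, 104 and 348 counts in the WT libraries. Scaled to library size this was 74.0, 56.9 and 62.7 CPM in Lama4-/- and 17.7, 17.8 and 26.9 CPM in WT. The lowest Lama4-/- library lay above the highest WT library. The group means were 64.5 ± 8.72 CPM in Lama4-/- and 20.8 ± 5.24 CPM in WT, a ratio of 3.10 and a log2 fold change of 1.63 (SE 0.27). Alad (chromosome 4, 62509169 to 62519918, minus strand, GRCm38) shared no annotated exon with another gene, so no annotated antisense partner could share its reads.

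Uros and Urod act next to each other in the cytosol, the synthase closing the ring of uroporphyrinogen III and the decarboxylase trimming its side chains. Uros was at 28.9, 19.7 and 16.99 CPM in Lama4-/- and 15.9, 19.7 and 23.9 CPM in WT. Its groups overlapped, with a log2 fold change of 0.14 (SE 0.34) that turned negative without Lama4-/- replicate 1 (-0.10) and with the length trend below removed (-0.05). Urod was at 67.0, 38.9 and 63.7 CPM in Lama4-/- and 37.3, 40.9 and 43.2 CPM in WT. Only Lama4-/- replicate 2 fell among the WT libraries, and the log2 fold change was 0.48 (SE 0.27). On GRCm38 Uros lies on chromosome 7, 133686243 to 133710072, and Urod on chromosome 4, 116989965 to 116994413, both on the minus strand.

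Cpox, Ppox and Fech complete the pathway at the mitochondrion. Coproporphyrinogen oxidase (Cpox) was at 43.9, 52.8 and 24.5 CPM in Lama4-/- and 42.5, 44.9 and 58.9 CPM in WT. Its groups overlapped and the log2 fold change was -0.27 (SE 0.33). It lies on chromosome 16, 58670292 to 58717636, on the plus strand (GRCm38), and shares 204 of 6661 exon bases with Gpr15 on the opposite strand. Protoporphyrinogen oxidase (Ppox) was at 46.2, 30.6 and 53.0 CPM in Lama4-/- and 18.5, 26.0 and 22.1 CPM in WT. Its groups did not overlap, with means of 43.3 ± 11.5 CPM in Lama4-/- and 22.2 ± 3.74 CPM in WT and a log2 fold change of 0.96 (SE 0.30). Of 4515 exon bases of Ppox (chromosome 1, 171275990 to 171281186, minus strand, GRCm38), 791 are shared with B4galt3 on the opposite strand, which makes its count less certain than that of Alad. Ferrochelatase (Fech) was at 92.9, 71.9 and 152 CPM in Lama4-/- and 52.0, 106 and 91.8 CPM in WT. Lama4-/- replicate 3 was the highest library, the groups overlapped, and the log2 fold change was 0.35 (SE 0.36), or -0.01 without that library.

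**Figure D1:**
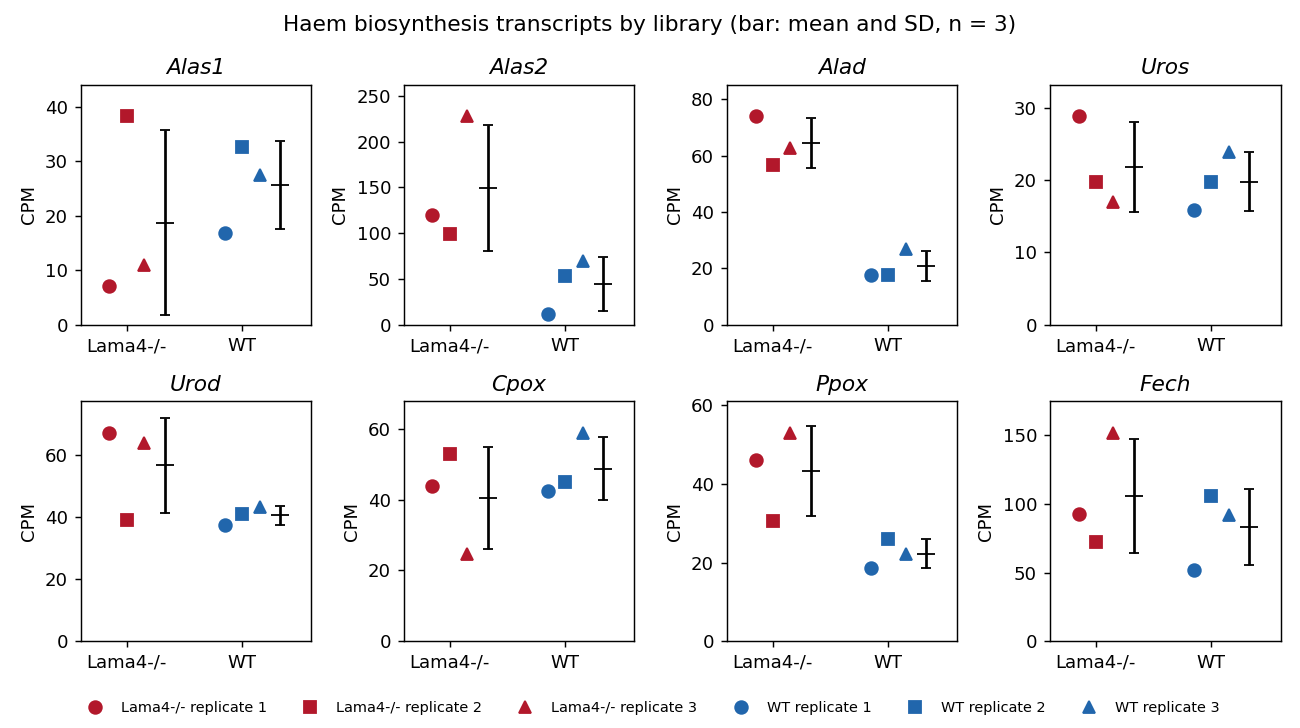
CPM of each enzyme by library, with Lama4-/- left and WT right in each panel; points are single libraries and the bar gives the mean and SD (n = 3). Alad, Alas2 and Ppox are the panels where every Lama4-/- point lies above every WT point.

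Thus 3 of the 8 members had groups that did not overlap, all higher in Lama4-/-, where 10.3% of the 14465 tested genes did so in that direction. The groups of Alas1, Uros, Urod, Cpox and Fech overlapped. With edgeR's quasi-likelihood test, 0 of the 8 passed an adjusted p of 0.05, where 0.00691% of all tested genes (Lama4) did. At an unadjusted p under 0.05 there were 3 members on the higher side, against 4.45% of tested genes, and 0 on the lower side, against 8.34%. DESeq2 called 1 member, Alad, where it called 1.08% of the genes with an adjusted p higher, 3.56% lower and 4.64% in either direction. The authors' deposited table lists 2 members with an adjusted p under 0.05, Alad and Alas2, where it lists 6.63% of the 10180 genes that it gives an adjusted p. These counts rest on the comparison that chose the group. Over all tested genes that unadjusted threshold gave 644 higher and 1207 lower under TMM. Upper-quartile scaling turned this into 988 and 967, and removal of the length trend into 701 and 459. The 8 members had 6 positive log2 fold changes and a median of 0.41, beside 48.0% positive and a median of -0.04 over all tested genes.

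Fold changes in this series followed transcript length, and the members span that range. With tested genes put in 10 bins by the length of their longest transcript, Alad and Alas2 lay in decile 3, where the median log2 fold change was 0.27, and Fech in decile 9, where it was -0.58. With the trend removed from every library, the log2 fold change was 1.36 for Alad and 1.51 for Alas2. That of Fech was 1.09, against 0.35 before, a shift larger than its SD between replicates. The value for Ppox depended on which length was taken, since its longest transcript (4411 bases) is not its longest coding transcript (1821 bases). It was 1.31 with the first and 0.71 with the second, an alternative chosen after seeing the data.

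**Figure D2:**
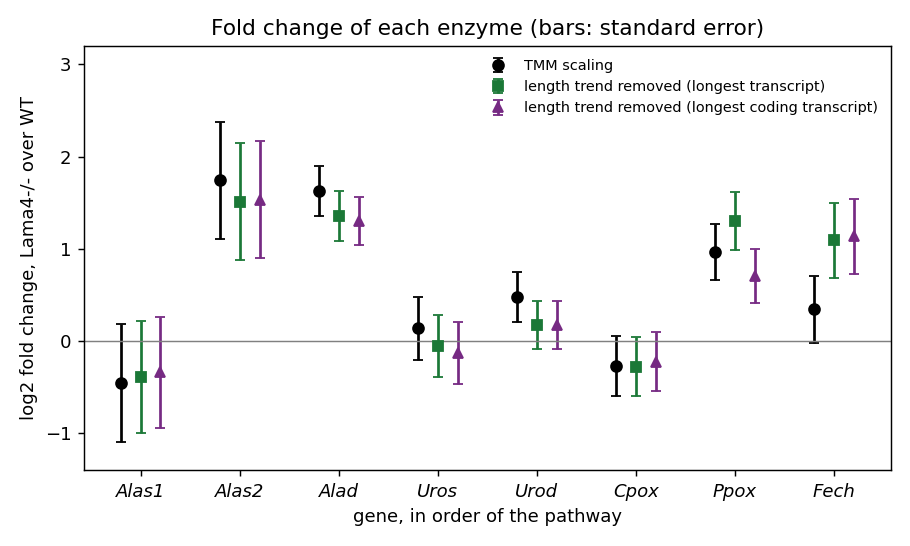
Log2 fold change of each enzyme, Lama4-/- over WT, in the order of the pathway, with its standard error, under TMM scaling and with the length trend removed by either transcript length. The lowest of the 3 values is 1.30 for Alad and 1.51 for Alas2, while Fech is at 0.35 with TMM scaling and at 1.09 and 1.13 without the trend.

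Between genes, levels were compared as CPM per kilobase of the longest coding transcript. In Lama4-/- the order of these levels was Alas2 (73.1 ± 33.9), Alad (51.7 ± 6.99), Urod (37.97 ± 10.3), Ppox (23.8 ± 6.302), Fech (16.1 ± 6.29), Cpox (13.1 ± 4.67), Uros (12.4 ± 3.53) and Alas1 (5.52 ± 5.01). In WT it was Urod (27.2 ± 1.99), Alas2 (21.9 ± 14.6), Alad (16.7 ± 4.21), Cpox (15.74 ± 2.86), Fech (12.7 ± 4.24), Ppox (12.2 ± 2.05), Uros (11.2 ± 2.29) and Alas1 (7.56 ± 2.38). Every pair of neighbours in either order had overlapping libraries, except Alad and Urod in Lama4-/-, whose nearest libraries were at 45.6 and 45.02. Per length, the red cell gene Alas2 was above the housekeeping gene Alas1 in all 6 libraries of these stromal sorts. In WT replicate 1 they were close, at 5.62 for Alas2 and 4.95 for Alas1. The counts there ran the other way, at 153 for Alas2 and 225 for Alas1. The ranks depend on the length used: with the longest transcript of any kind Alad was the fifth in WT and Ppox the last.

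**Figure D3:**
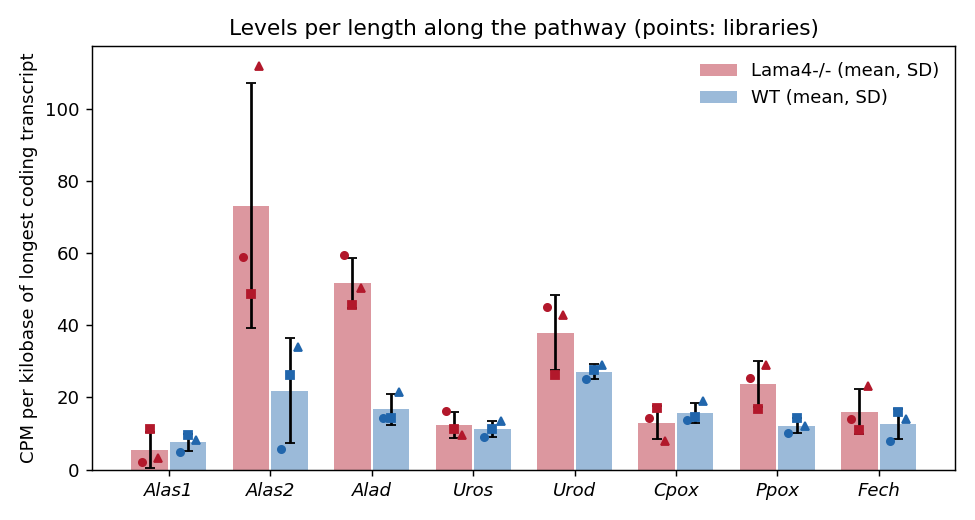
CPM per kilobase of the longest coding transcript for each enzyme in Lama4-/- and WT; bars are means, whiskers SD and points libraries (n = 3). Alas1 has the lowest bar in both groups, and Alas2 and Alad have the tallest in Lama4-/-.

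Haemoglobin transcripts, the product of red cell precursors, were present in every library. The summed CPM of the 4 adult haemoglobin genes (Hba-a1, Hba-a2, Hbb-bs and Hbb-bt) was 3277, 1239 and 3626 in Lama4-/- and 239, 569 and 1569 in WT. Lama4-/- replicate 2 was below WT replicate 3, so the groups overlapped. Per 1000 CPM of haemoglobin, Alas2 was at 36.6, 80.0 and 62.8 CPM in Lama4-/- and at 47.9, 93.6 and 44.1 CPM in WT. On this scale its means, 59.8 ± 21.8 in Lama4-/- and 61.9 ± 27.6 in WT, differed by less than the spread between replicates. In bulk samples, more cells of a type and more RNA per cell cannot be told apart.

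The spread of Alad within a genotype was narrower than that of Alas2 or haemoglobin. Among the WT libraries haemoglobin differed 6.57-fold and Alas2 6.05-fold, whereas Alad differed 1.51-fold. A narrow spread in WT was not particular to Alad. Urod (1.16-fold), Cpox, Ppox and, by a small margin, Uros differed by less there, while Alas1 and Fech differed by more. Among the Lama4-/- libraries haemoglobin differed 2.93-fold, Alas2 2.30-fold and Alad 1.30-fold, and every other enzyme of the set differed by more than Alad. Per 1000 CPM of haemoglobin, Alad was at 22.6, 45.9 and 17.3 CPM in Lama4-/- and at 74.2, 31.3 and 17.1 CPM in WT. On that scale the groups overlapped and the Lama4-/- mean was the lower one, at 28.6 ± 15.2 in Lama4-/- and 40.9 ± 29.7 in WT. In a pair of libraries chosen after their values were seen, Lama4-/- replicate 2 held 0.790 times the haemoglobin CPM of WT replicate 3 and 2.12 times its Alad CPM. Ppox was 1.38 times as high and Fech 0.783 times as high in the same pair of libraries. Alas1 was lowest in both Lama4-/- libraries with the most haemoglobin, but its order did not follow haemoglobin in the others. It was next lowest, at 16.8 CPM, in WT replicate 1, which held the least haemoglobin. Its highest value, 38.3 CPM, was in Lama4-/- replicate 2, and a relation between them was not tested.

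**Figure D4:**
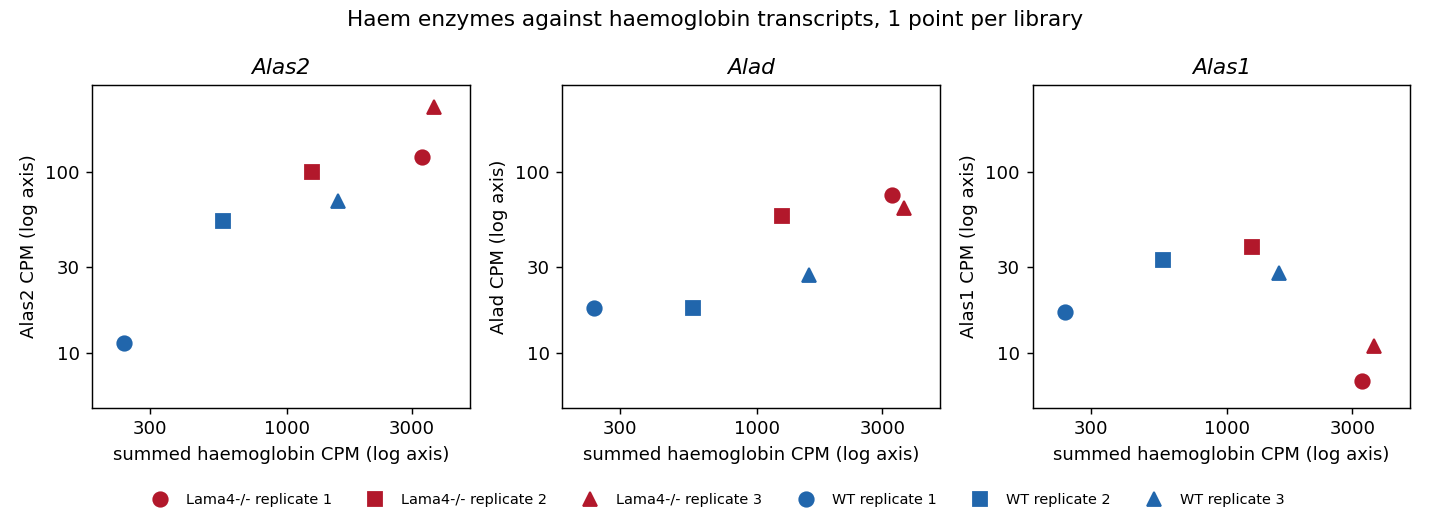
CPM of Alas2, Alad and Alas1 against the summed CPM of 4 haemoglobin genes, 1 point per library, both axes logarithmic. Alas2 follows the order of haemoglobin except that Lama4-/- replicate 2 is above WT replicate 3, and in these libraries Alad is at 56.9 CPM in Lama4-/- replicate 2 and 26.9 CPM in WT replicate 3.

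Markers of other cell types differed between the genotypes as well, although 0 of them passed the edgeR adjustment. DESeq2 called 1 red cell, 4 neutrophil and 1 macrophage marker higher, where it called 1.08% of the genes with an adjusted p higher. It called 0 B cell, megakaryocyte or endothelial markers. Of 16 listed red cell markers, 15 were in the table and 14 were tested, 13 with a positive log2 fold change, and the sum of the list was 1301 to 3670 CPM in Lama4-/- and 264 to 1664 CPM in WT. Gata1, the red cell transcription factor, had 0 counts in 4 of the 6 libraries. The most abundant red cell gene, Hbb-bs, was at 1438 ± 703 CPM in Lama4-/- and 390.3 ± 343 CPM in WT (DESeq2 adjusted p = 0.0447). The 10 neutrophil markers, all with a positive log2 fold change and 4 called by DESeq2, summed to 713, 672 and 85.8 CPM in Lama4-/- and to 102, 29.97 and 114 CPM in WT. Lama4-/- replicate 3 was thus within the WT range. S100a9 led that list, at 155 ± 112 CPM in Lama4-/- and 27.0 ± 19.4 CPM in WT. The 9 macrophage and monocyte markers, 6 positive of 7 tested, summed to 72.1 to 119 CPM in Lama4-/- and 23.5 to 48.1 CPM in WT without overlap. Lyz2 led them, at 66.4 ± 26.9 CPM in Lama4-/- and 16.8 ± 4.69 CPM in WT (DESeq2 adjusted p = 0.000733). It gave 88.6 of 107 CPM in Lama4-/- replicate 1 and 18.7 of 48.1 CPM in WT replicate 3. Without Lyz2 the sums therefore overlapped. The negative gene was Cd68, at 6.73 ± 4.34 CPM in Lama4-/- and 9.10 ± 5.47 CPM in WT with overlapping groups. Of the 7 tested, 4 were higher without overlap, against 10.3% of all tested genes. Endothelial markers ran the other way, at 0.120 to 2.69 CPM in Lama4-/- and 7.36 to 11.5 CPM in WT. B cell markers summed to 47.9 to 56.3 CPM in Lama4-/- and 65.1 to 95.0 CPM in WT, mostly from Ebf1, which stroma also expresses, with 4 of the 8 listed genes in the table. Megakaryocyte markers summed to 4.89 to 16.4 CPM in Lama4-/- and 10.6 to 21.7 CPM in WT. The part of these cells in the levels of the enzymes was not tested.

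**Figure D5:**
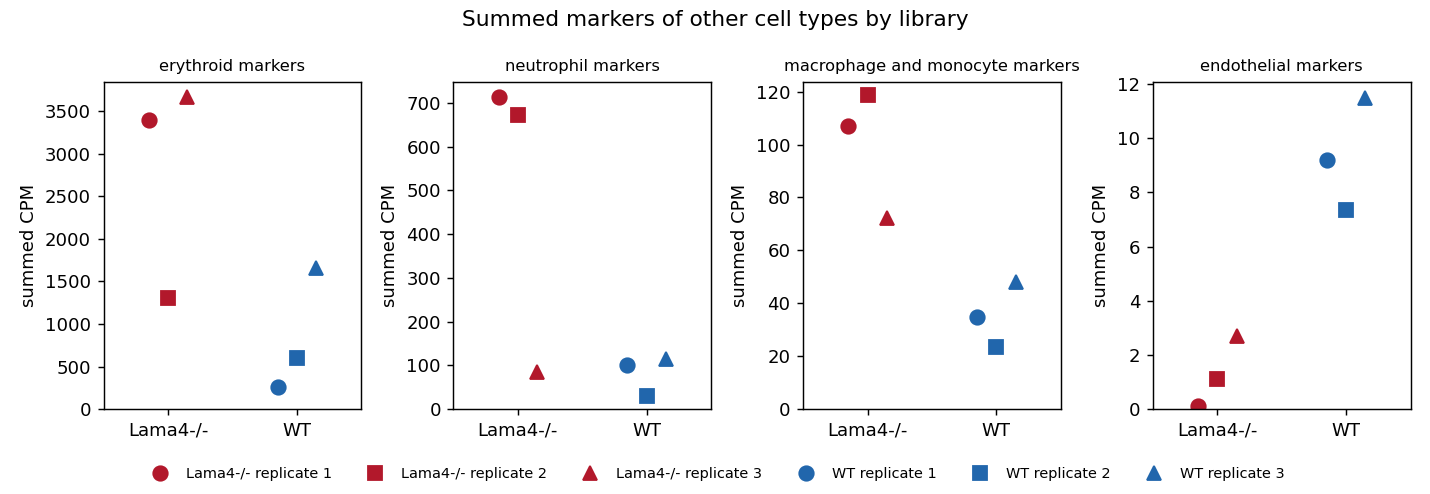
Summed CPM of marker lists of 4 other cell types by library, Lama4-/- left and WT right, 1 point per library. Red cell and neutrophil sums overlap between genotypes, whereas macrophage sums, led by Lyz2, are higher and endothelial sums lower in every Lama4-/- library.

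Other genes that supply or use haem were read from lists drawn up for this purpose, and by edgeR none of them reached an adjusted p of 0.05 (0 genes in each list). Of 20 genes for mitochondrial transport and iron-sulphur assembly, all tested, 13 had a positive log2 fold change, with a median of 0.29 (0.06 without the length trend). At an unadjusted p under 0.05 this list had 0 genes on the higher and 1 on the lower side, and DESeq2 called 0. That gene was Slc25a37 (mitoferrin 1), which brings iron into the mitochondria of developing red cells. It was at 12.2, 17.1 and 5.59 CPM in Lama4-/- and 18.9, 24.1 and 55.0 CPM in WT, lower in Lama4-/- without overlap while Alas2 was higher. On the higher side, the mitochondrial glutathione carrier Slc25a39 was at 158 ± 19.7 CPM in Lama4-/- and 117 ± 22.1 CPM in WT, and the protease subunit Clpp at 56.5 ± 4.62 CPM in Lama4-/- and 40.4 ± 5.55 CPM in WT.

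Iron handling gave a mixed picture, with 7 of 10 genes positive, a median of 0.14, and 1 gene higher and 0 lower at an unadjusted p under 0.05. DESeq2 called 0. The transferrin receptor Tfrc, which takes up iron and is abundant on red cell precursors, was at 32.3 ± 14.8 CPM in Lama4-/- and 57.6 ± 14.7 CPM in WT, with overlapping groups. The iron chaperone Pcbp1 was at 215 ± 18.4 CPM in Lama4-/- and 156 ± 23.3 CPM in WT without overlap. The iron exporter ferroportin (Slc40a1) was at 85.0 ± 21.8 CPM in Lama4-/- and 61.1 ± 9.20 CPM in WT. Ncoa4, the receptor for ferritin breakdown, was at 5.42 ± 1.36 CPM in Lama4-/- and 7.93 ± 1.51 CPM in WT.

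Haem breakdown, export and sensing had 14 of 15 genes tested, 6 positive and 8 negative, with a median of -0.02 that was 0.08 with upper-quartile scaling. None passed at an unadjusted p under 0.05 (0 higher, 0 lower), and DESeq2 called 0. Biliverdin reductase B (Blvrb) was at 42.5 ± 8.42 CPM in Lama4-/- and 27.8 ± 6.75 CPM in WT. The haem-binding nuclear receptor Nr1d2 was at 76.7 ± 28.8 CPM in Lama4-/- and 120.0 ± 11.5 CPM in WT, both without overlap. The haem-sensing repressor Bach1 (11.3 ± 8.40 CPM in Lama4-/- and 21.4 ± 10.4 CPM in WT) and the folate and haem transporter Slc46a1 (25.7 ± 7.06 CPM in Lama4-/- and 18.2 ± 6.92 CPM in WT) had overlapping groups.

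Among 17 tested genes of 18 that bind haem or work beside it, 9 were positive, with a median of 0.15 (-0.01 without the length trend), and 3 were higher and 1 lower at an unadjusted p under 0.05. DESeq2 called 1 higher and 1 lower. The respiratory cytochrome Cyc1 was at 178 ± 18.9 CPM in Lama4-/- and 114 ± 15.1 CPM in WT (DESeq2 adjusted p = 0.0493). Sdhd, a haem-holding anchor of complex II, was at 133 ± 9.63 CPM in Lama4-/- and 89.8 ± 12.5 CPM in WT. On the lower side, the prostaglandin synthase Ptgs2 was at 21.1 ± 3.05 CPM in Lama4-/- and 45.5 ± 10.8 CPM in WT (DESeq2 adjusted p = 0.0207). The globin Cygb was at 13.7 ± 0.772 CPM in Lama4-/- and 22.1 ± 4.94 CPM in WT.

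The clock was included because Alas1 is a known clock output. Of its 14 genes, 5 were positive, with a median of -0.21 (0.14 without the length trend), and 2 were higher and 1 lower at an unadjusted p under 0.05. The same counts held with DESeq2. The output factor Dbp was at 54.5 ± 4.73 CPM in Lama4-/- and 14.98 ± 1.42 CPM in WT, and Ciart at 27.9 ± 5.87 CPM in Lama4-/- and 12.3 ± 1.90 CPM in WT. Clock itself was at 14.9 ± 8.49 CPM in Lama4-/- and 45.6 ± 12.97 CPM in WT. These 3 genes had groups without overlap, unlike Alas1.

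The genes whose log2(CPM + 1) over the 6 libraries followed Alad most closely, of 10082 genes with a mean of at least 5 CPM, were Apopt1 (Pearson's r = 0.991), Ppib (0.985), Psmc1 (0.984), Capzb (0.979) and Akr1a1 (0.979). Apopt1 was at 36.9 ± 5.604 CPM in Lama4-/- and 17.6 ± 4.16 CPM in WT, so its groups also stood apart; the libraries of each genotype form separate clusters for both genes. For Alas1 they were Gbe1 (0.994), Efhd2 (0.991), Calml3 (0.983), Laptm4b (0.981) and Tm9sf4 (0.979). Gbe1 was at 12.6 ± 11.2 CPM in Lama4-/- and 19.3 ± 7.26 CPM in WT, with the same wide Lama4-/- group as Alas1. These are the extremes of a long ranking over 6 libraries and are given as a description.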

How the data were processed

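Per the labels' protocols, RNA was amplified with SMART-Seq v4 and Nextera XT libraries were read from a single end. The kit does not mark strand. Tools named in the submitters' processing notes are STAR 2.6.1d, FastQC 0.11.8 and MultiQC 1.7, with featureCounts, Subread and DESeq2; builds are mm10 and GRCm38. Their settings: not given in the sources used here. In the 1 table the authors deposited, the headings of the blocks of library columns are exchanged. The columns under the normalized heading are whole numbers throughout and were taken as the deposited raw counts. Those under the raw heading are a deposited signal, equal to the counts times a factor per library (0.708 to 1.98), and were not tested. The last columns, per the file headers, hold the authors' own comparison: a mean signal, a log2 fold change with its SE, a Wald score, a p-value and an adjusted p-value, NA for 15311 genes.

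edgeR 4.0.16 (R 4.3.3) kept 14465 genes with filterByExpr, scaled them with TMM and compared 3 libraries with 3 by the robust quasi-likelihood test, with Benjamini-Hochberg adjustment over all of them. SEs are the log2 fold change divided by the root of F. CPM values are counts scaled to a TMM-adjusted total of 1000000. GENCODE M21 (GRCm38), which held 25451 of the gene IDs, gave positions and lengths. The fit was tested on simulated data. No pair of libraries of a genotype agreed within counting noise.

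The members and gene lists were chosen with earlier results of these data known. Named genes outside the members were taken by rule: from each pathway list the 2 with the smallest p in each direction, and by marker list the most abundant; the 5 genes most like Alad and Alas1 by Pearson's r. Of the genes so taken, 1 is not reported here. Gate and stromal genes, Gata1 and the pair of libraries compared on haemoglobin were picked after their values were seen. DESeq2 1.42.0 and limma 3.58.1 (voom with a quality weight for each library) were alternatives.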

Additional observations from a re-analysis of the deposited data

How the results depend on the processing

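The number of genes called over the whole table was 1 in the edgeR test, and 12 without a filter, 741 with DESeq2, and 0 with upper-quartile scaling, limma voom, no robust moderation, the replicate block, and either removal of the length trend. Leaving out single libraries gave 0 to 1. Of the 8 enzymes, DESeq2 called 1, and every other alternative called 0. The adjusted p of Lama4 was 0.0550 with upper-quartile scaling, 0.160 with limma voom, 0.0507 without robust moderation, 0.3005 with the replicate block and 0.0756 or 0.0810 with the length trend removed; it ran from 0.0482 to 0.593 with single libraries left out. Same-numbered libraries correlated at 0.03 to 0.13 in their deviations from the group means, so the numbers were not taken as pairs, although 6 of 6 libraries correlated best with their own number. The block fit gave 1.65 for Alad, 1.97 for Alas2 and -0.79 for Alas1. Over 17 alternatives the log2 fold change of Alad ran from 1.30 to 1.87, that of Alas2 from 1.30 to 2.24 and that of Ppox from 0.71 to 1.31. Uros kept its sign in 14 of the 17 and Fech in 16. Among the log2 fold changes of the enzymes under these alternatives, 5 moved by more than the SD between replicates and 131 did not. With 3 libraries a group, precision is limited by the spread between libraries, whose counts differed by a chi-square of at least 47.5 per gene within a genotype.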
